A study of Homo sapiens with 3 samples.

Results

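Promoter contacts that span over 10 Mb of a chromosome were examined in hESC-CM, cardiomyocytes made from human embryonic stem cells. The cells came from the WA09 (H9) line at passage 32 and were differentiated with a kit, enriched for 6 days in medium with 4 mM lactate and no glucose, brought to at least 80 to 90% purity by MYH7 and TNNT2, and fixed for 10 min in 2% formaldehyde. There was 1 group with 3 biological replicates, all from this single line and with no other cell type beside it, so no comparison between conditions was possible. The files hold contacts only, and marker expression was not examined. The assay, promoter capture Hi-C or PCHi-C, ligates HindIII fragments that lie close together in the nucleus and enriches the ligation products that hold a promoter fragment. A member was a called interaction on 1 chromosome with more than 10 Mb between the fragment midpoints, and with a promoter-interacting region (PIR) that was never itself a promoter fragment. Together the 3 replicates held 14893 such contacts, of 173855 same-chromosome contacts with a PIR of this kind and of 200809 interactions of every kind. Replicates 1, 2 and 3 held 4882, 5329 and 5751 of them.

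Most promoter contacts form within the same stretch of a chromosome, because loops and topologically associating domains bring an enhancer near its promoter over short distances, and contact frequency falls steeply as distance grows. Contacts across many megabases are known between compartments of like activity and between chromosome ends, and every contact map takes the order of its fragments from a reference assembly. The centromere is a further barrier, since the arms of a chromosome meet each other less often than fragments of a shared arm. CHiCAGO scores a fragment pair by how far its read pairs exceed a background set by distance and technical noise, and the deposited lists hold scores of 5 or more. A score over a cell population does not tell how many cells held the contact.

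The sequences of a few named fragments show what was ligated. Each HindIII fragment starts after the first base of its cut site, so its first 5 bases, in capitals, are what remains of the site; all are on the plus strand of GRCh37. The first, at PDE4DIP (chr1:145065047-145065106 shown), is the PIR of the contact with the highest mean score among those in all 3 replicates. The others are a pair that joins the PDZK1 promoter fragment (chr1:145725259-145725318 shown) with an intronic stretch of DDAH1 (chr1:85990370-85990429 shown).
PDE4DIP fragment: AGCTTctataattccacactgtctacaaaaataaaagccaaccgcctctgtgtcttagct
PDZK1 promoter fragment: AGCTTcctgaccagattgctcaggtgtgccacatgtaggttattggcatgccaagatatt
DDAH1 fragment: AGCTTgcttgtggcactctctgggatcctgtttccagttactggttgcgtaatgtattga

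For a part of the contacts a near-identical copy of the PIR lies near the promoter, and such a copy is shown for a PIR of chromosome 1 because the longest contacts in all 3 replicates had it. The PIR chr1:234919134-234919283 (plus strand) is set beside chr1:17125509-17125658 (minus strand), both in GRCh37. Capitals mark the bases that differ, 2 of 150.
Chromosome 1 PIR: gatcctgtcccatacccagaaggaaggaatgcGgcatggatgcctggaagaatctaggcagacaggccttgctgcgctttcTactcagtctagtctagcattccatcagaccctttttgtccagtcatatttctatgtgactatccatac
Chromosome 1 copy: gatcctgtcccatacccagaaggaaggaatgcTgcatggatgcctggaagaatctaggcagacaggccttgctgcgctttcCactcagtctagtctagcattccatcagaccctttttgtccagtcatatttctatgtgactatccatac

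Few contacts over 10 Mb were called again in another replicate. Of the 14893, 14234 were called in 1 replicate, 249 in 2 and 410 in all 3, so 659 were recurrent (called in 2 or 3). This is 4.42% (95% Wilson interval 4.11 to 4.77%, counting error only), against 42.2% of the same-chromosome contacts of all distances and 45.8% of those up to 10 Mb. With a score of at least 10 it was 34.2% of 1412 contacts, and 8.90% when contacts were matched within 20 kb. The share was 55% up to 1 Mb, 37.9% between 1 and 2 Mb and 24.5% between 2 and 10 Mb, so recurrence fell at each step in distance. Seen from a single library, 11.8%, 10.7% and 10.1% of the members in replicates 1, 2 and 3 were also called elsewhere, a mean of 10.9 ± 0.87% (SD, n = 3), against 44.2%, 44.8% and 43.0% for contacts of 2 to 10 Mb. The ranges of the replicates did not overlap between any of these distance classes. Replicates 1 and 2 shared 487 members, replicates 1 and 3 shared 500, and replicates 2 and 3 shared 492. At the edge of the 10 Mb rule, the 3 nearest contacts below it lay at 9.993 to 9.999 Mb with scores of 5.09 to 6.13, the 3 nearest members lay at 10.009 to 10.013 Mb with scores of 5.29 to 6.43, and all were single calls. Between 9 and 10 Mb 2 of 464 contacts were recurrent, and between 10 and 11 Mb 1 of 437, so recurrent contacts were rare on both sides.

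**Figure D1:**
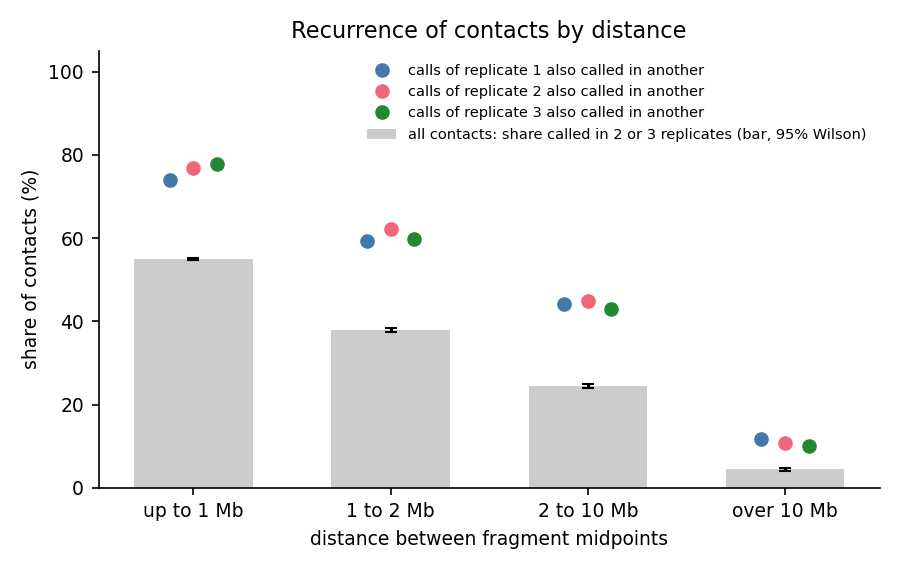
Recurrence of same-chromosome contacts by distance between fragment midpoints: bars give the share of all contacts called in 2 or 3 replicates with 95% Wilson intervals, and points give, for each replicate, the share of its calls also called in another. For contacts over 10 Mb the bar stands at 4.42% and the points between 10.1% and 11.8%, below each nearer class.

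The number of calls over 10 Mb was alike in the 3 libraries although the pairs differed. They made up 4.98%, 5.60% and 5.98% of the same-chromosome calls of replicates 1, 2 and 3, a mean of 5.52 ± 0.51% (SD, n = 3). Scores of single calls were close to the threshold, with a median of 6.10, while the median of the mean score was 22.02 for recurrent contacts and 29.7 for those in all 3 replicates. Scores between 25 and 28 were crowded, since 407 member calls fell there against 92 between 22 and 25 and 38 between 28 and 31. In replicate 2, 103 of the 149 such calls repeated a value of the same promoter fragment in that library, and for ADAM30 the score 27.45 alone came up 12 times among 70 calls. Scores are given for each replicate below, since a mean mixes these repeated values with scores above 100.

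Recurrent contacts lay mostly on chromosome 1. Chromosome 1 held 540 of the 659 (81.9%), and 363 of the 410 called in all 3 replicates, but 2260 of the 14234 single calls (15.9%). Chromosome 17 came next with 27 recurrent contacts, followed by chromosome 19 with 18, chromosome 4 with 14, chromosome 2 with 13 and chromosome 16 with 12. Chromosomes 8, 13, 15, 18, 21, 22 and X held none, although X had 854 single calls. Without chromosome 1, which was left out after its share was seen, 0.984% of 12093 members were recurrent. All calls together were spread more widely, with 2800 on chromosome 1, 1207 on chromosome 11, 1113 on chromosome 19 and 62 on chromosome 15. Of its same-chromosome contacts 32.2% spanned over 10 Mb on chromosome 19, 20.4% on X, 15.2% on chromosome 1 and 1.51% on chromosome 21.

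**Figure D2:**
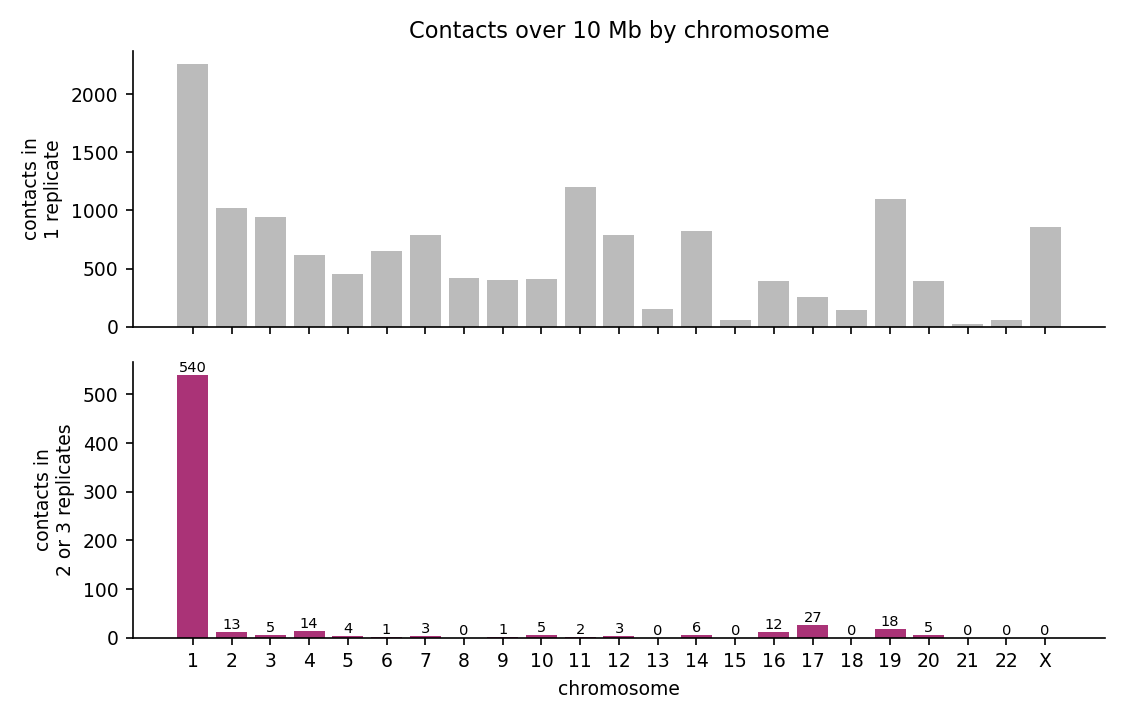
Contacts over 10 Mb on each chromosome, with contacts called in 1 replicate in the upper bars and contacts called in 2 or 3 in the lower bars, which carry their counts. Chromosome 1 stands at 540 of the 659 recurrent contacts, and the next, chromosome 17, at 27.

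The 659 contacts fell into 61 clusters when contacts were joined wherever both ends lay within 1 Mb, and the 8 largest held 556 of them. Contacts named within a cluster beyond the highest and the longest were chosen after their values were seen. The 659 used 149 promoter fragments and 275 PIRs, so they are not independent of each other. By contrast the 14893 members formed 7259 clusters, 5568 of them a lone contact. Another member with both ends within 100 kb was found for 96.0%, 96.3% and 96.7% of the recurrent calls of replicates 1, 2 and 3, but for 17.8%, 17.6% and 19.5% of their single calls. The mean difference was 78.1 ± 0.75 percentage points (SD, n = 3). In an exact two-sided sign-flip permutation test over 3 replicates the smallest p possible is 0.25, which this difference had, as did every difference between recurrent and single calls below. A recurrent contact enters in each replicate that called it, and 410 of the 659 enter in all 3, so the recurrent values of the replicates share most of their contacts. Their small SD and common direction are partly set by this and are not independent agreement, here and below.

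The largest cluster joined promoters of 1p12 with the stretch that holds PDE4DIP and SEC22B on the other arm of chromosome 1. It held 284 recurrent contacts, 227 of them in all 3 replicates, between 7 promoter fragments (chr1:119907842-120440812) and 69 PIRs (chr1:144532064-145118548), a median of 24.7 Mb apart across the centromere gap. PDE4DIP encodes a protein of the centrosome and Golgi, and SEC22B a SNARE protein of transport between the endoplasmic reticulum and the Golgi. The promoter fragment of ADAM30, a member of the ADAM metalloprotease family, had 67 of these contacts, 60 in all 3 replicates. REG4, which encodes a secreted lectin, had 60. The fragments of PHGDH, the first enzyme of serine synthesis, had 52 (shared with ZNF697) and 42. Farther from the centromere the counts dropped, to 1 for HSD3B2, an enzyme of steroid synthesis, and to 3 for HAO2, a peroxisomal hydroxy acid oxidase.

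By mean score, 6 of the 10 highest contacts in all 3 replicates were in this cluster. ADAM30 and the PDE4DIP fragment whose start is shown above scored 306.73 in replicate 1, 310.81 in replicate 2 and 27.45 in replicate 3. With the fragment at chr1:145077349-145079961 ADAM30 scored 26.35, 260.46 and 246.07, and with chr1:145088913-145090034 it scored 232.12, 27.45 and 228.74. A value near 27 fell in a different library for each of these pairs. ADAM30 scored 106.91, 121.38 and 199.77 with chr1:145057443-145062795, also in PDE4DIP. It scored 177.38, 27.45 and 202.1 with chr1:145092710-145095230, just before SEC22B. REG4 scored 183.6, 139.57 and 152.66 with the SEC22B fragment chr1:145115011-145116060, where all 3 libraries were above 100.

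**Figure D3:**
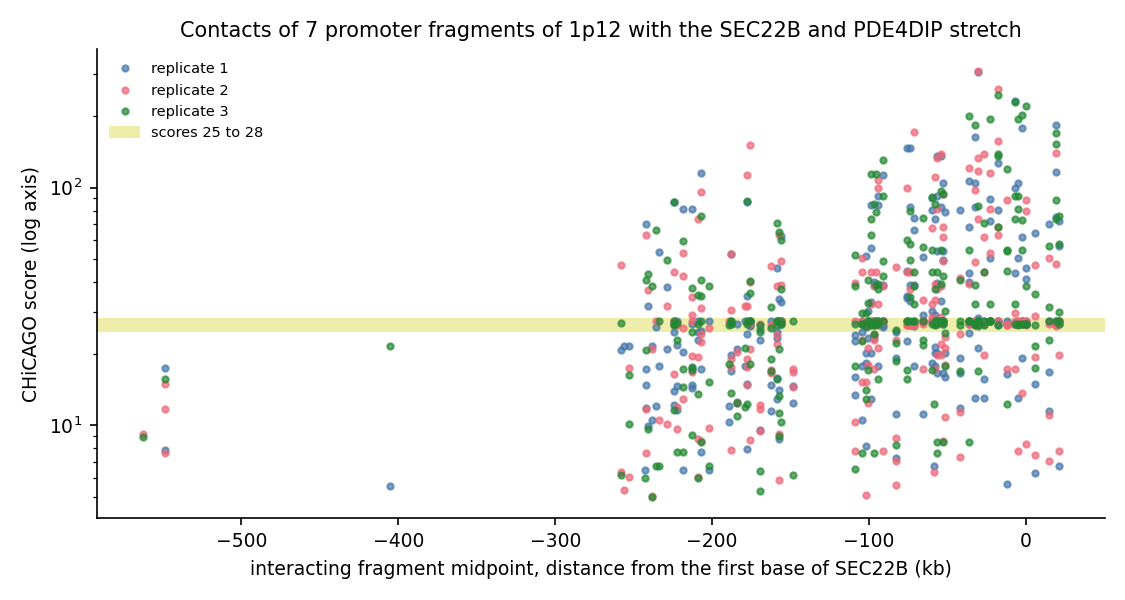
CHiCAGO scores (log axis) of the 284 recurrent contacts between 7 promoter fragments of 1p12 and the SEC22B and PDE4DIP stretch, by the distance of the PIR midpoint from the first base of SEC22B, with 1 colour per replicate and a band for scores of 25 to 28. Nearly all points of the 3 replicates lie in blocks shortly before SEC22B and across it, many lie in the band, and the highest score, 310.81, lies just before SEC22B.

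The PIRs of this stretch also had nearer contacts. With the 2 promoter fragments inside the stretch they had 63 contacts, 56 of them recurrent, and the highest mean score was 40.8. The 69 PIRs had 46 contacts with 12 of the 16 promoter fragments outside the stretch and within 2 Mb of it, 6 of them recurrent and 0 in all 3 replicates, and the highest mean score was 9.08. With the 7 promoter fragments 24 Mb away they had 322 contacts, 284 of them recurrent, and the highest mean score was 215. These PIRs and promoter fragments were picked for their recurrent far contacts, so the far counts and scores are high by selection. Scores are also set against a background that depends on distance, so near and far scores are not like measures. Within 2 Mb the 1p12 promoters differed. REG4 had 6 contacts and the PHGDH and ZNF697 fragment had 4, none of them recurrent. ADAM30 had 9 with 4 recurrent, the other PHGDH fragment 11 with 5 and HSD3B2 16 with 2. HAO2, with 3 far contacts, had 46 contacts within 2 Mb, 31 of them recurrent.

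A second cluster was the mirror of the first. The promoter fragments chr1:144941765-144945045, which holds the start of the small nuclear RNA pseudogene RNU2-38P inside PDE4DIP, and chr1:145074317-145077348, at a start of PDE4DIP, had 125 recurrent contacts, 83 in all 3 replicates, with 104 PIRs of chr1:119678784-120696957. These PIRs ran through NOTCH2, a Notch receptor, and through WARS2, PHGDH and REG4. The RNU2-38P fragment had more members than any other promoter fragment: 247, of which 104 were recurrent and 241 crossed the centromere. It also had 52 contacts within 2 Mb, 49 of them recurrent. A further 22 recurrent contacts, 3 in all 3 replicates, joined promoters of chr1:116914319-118475286, among them MAN1A2, with PIRs of the same PDE4DIP and SEC22B stretch. MAN1A2, a mannosidase of the Golgi, scored 16.56, 16.61 and 16.05 in replicates 1, 2 and 3 with the PDE4DIP fragment at chr1:145065047-145065968, nearly the same in each library.

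Gene order in this region differs between the build of the files and the later one. Among protein-coding genes named in both annotations, 6 lay between NOTCH2 and SEC22B in GRCh37 with GENCODE 44, on opposite sides of the centromere gap, and 0 lay between them in the RefSeq annotation of GRCh38.p14. Between NOTCH2 and the pseudogene PDE4DIPP2, which overlaps the PDE4DIP stretch in the lifted GENCODE annotation, the counts were 6 and 2. Between NOTCH2 and PDE4DIP itself they were 5 and 45. The read pairs were mapped to GRCh37, so distance and crossing are those of GRCh37, and how the contacts would lie on the later build was not tested. The 4 clusters that join this part of 1p with this part of 1q held 432 of the 659 recurrent contacts.

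Another cluster lay within the long arm of chromosome 1. On the long arm, 26 promoter fragments of chr1:205471598-207631615 had 51 recurrent contacts with 4 neighbouring PIRs of chr1:143991131-144021398, a median of 62.6 Mb away and without crossing the centromere. The promoter fragment of IKBKE, a kinase of innate immune signalling, scored 148.91, 248.99 and 26.08 in replicates 1, 2 and 3 with the PIR chr1:144008808-144014967. AVPR1B, a vasopressin receptor, scored 67.67, 25.68 and 59.67 with the neighbouring PIR of 266 bp at chr1:144014968-144015233. That small fragment was the PIR with the most recurrent contacts, 18, all 3 libraries contributing, and its neighbour had 15. The 4 PIRs had 1 contact with the 15 promoter fragments within 2 Mb. Of all HindIII fragments that were not promoter fragments, 9.15% had a contact within 2 Mb, so few nearer contacts are usual. For 10 of the 51 contacts a near-identical copy of the PIR lay within 2 Mb of the promoter: chr1:144019498-144023395 was 98.9% identical to a stretch at chr1:206482222-206486108. Between SRGAP2 and FAM72D, which lie beside these stretches, there were 662 protein-coding genes in GRCh37 and 655 in GRCh38.p14. Between SRGAP2 and FAM72A, both inside the promoter stretch, there were 3 in GRCh37 and 0 in GRCh38.p14.

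The DDAH1 contacts also reached scores above 100, and none had such a copy. DDAH1 hydrolyses asymmetric dimethylarginine, an inhibitor of nitric oxide synthases. Here 10 promoter fragments of chr1:145411681-145730005 had 35 recurrent contacts, 15 in all 3 replicates, with 6 neighbouring PIRs of chr1:85977822-86005632 inside DDAH1, a median of 59.6 Mb away across the centromere. PDZK1, a scaffold protein of the cell membrane, contacted all 6 in all 3 replicates, and scored 182.84, 160.84 and 194.06 with the fragment shown above. HJV, a co-receptor of iron regulation, scored 26.79, 35.3 and 13.31 with that fragment, and ANKRD35 scored 27.29, 13.37 and 25. PDZK1 was thus the highest in each library. None of the 33 promoter fragments within 2 Mb of these PIRs had a contact with them. Such a contact was called for only 9.15% of all HindIII fragments that were not promoter fragments. Between DDAH1 and ANKRD35 lay 239 protein-coding genes in GRCh38.p14, against 241 in GRCh37.

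Recurrent contacts crossed the centromere more often than single calls, and this rested on chromosome 1. A contact was counted as crossing when its midpoints lay on either side of the assembly gap taken as the centromere, which 20 chromosomes have inside their sequence; contacts on the others were counted as not crossing. Of all members 4360 crossed (29.3%), of the recurrent 519 of 659 (78.8%, Wilson 75.5 to 81.7%) and of the single 3841 of 14234 (27.0%, Wilson 26.3 to 27.7%). By replicate the share was 78.9%, 81.5% and 80.6% for recurrent calls and 27.0%, 26.8% and 27.1% for single calls, a mean difference of 53.3 ± 1.46 percentage points (SD, n = 3) between values that share most recurrent contacts. As background, 46.9% of the HindIII fragments over 10 Mb from the promoters of the single calls, and 51.8% for the recurrent calls, lay on the other arm. Single calls thus crossed 0.576 ± 0.0065 times as often as fragments were available (mean over 3 replicates, SD), and recurrent calls 1.55 ± 0.028 times. Crossing here is that of GRCh37. The 4 clusters that join 1p and 1q, where gene order differed between the builds, held 432 of the 659 recurrent contacts, all counted as crossing. How they would count on the later build was not tested. Without chromosome 1, 38 of 119 recurrent contacts crossed (31.9%, Wilson 24.2 to 40.8%). By replicate the recurrent calls then crossed in 29.5%, 34.8% and 34.1%, the single calls in 24.2%, 24.7% and 25.1%, and both stayed below the 48.8% and 45.5% available. When neighbouring contacts were counted as 1, the difference turned to -11.0 percentage points. Without fragments within 5 Mb of the centromere, 106 recurrent contacts were left and 30.2% of them crossed, against 24.5% of single calls.

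**Figure D4:**
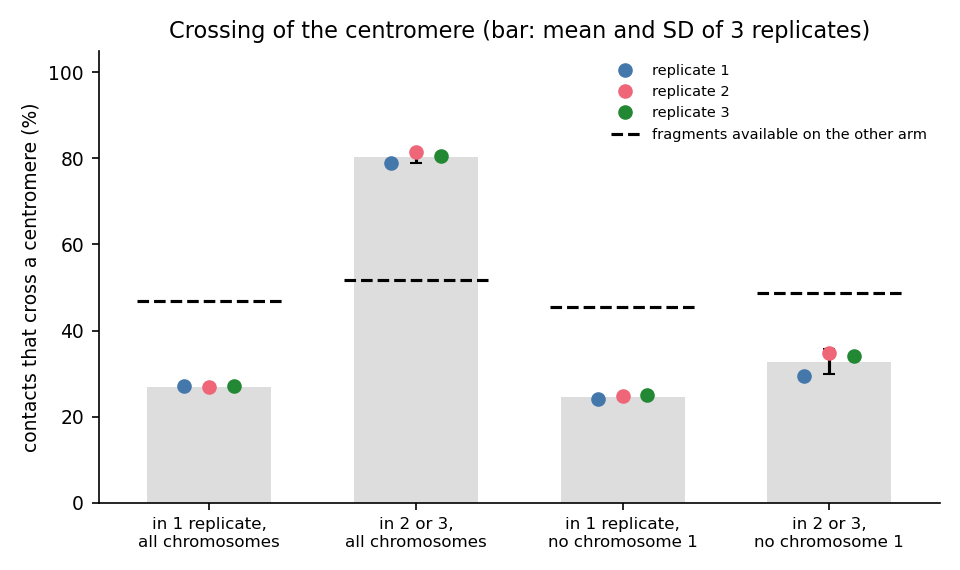
Share of contacts over 10 Mb that cross a centromere, for calls in 1 replicate and in 2 or 3, with all chromosomes and without chromosome 1. Bars give the mean and SD of 3 replicates, points the replicates, and dashed lines the share of HindIII fragments on the other arm. Recurrent calls lie at 78.9 to 81.5% with all chromosomes and at 29.5 to 34.8% without chromosome 1. Crossing is that of GRCh37.

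Single calls crossed less often than fragments were available in each distance class. Between 20 and 50 Mb 24.8% of the single calls crossed and 31.6% of the fragments available lay across, and between 50 and 100 Mb the values were 25.7% and 41.1%. Between 10 and 20 Mb they were 5.70% and 13.6%. Over 100 Mb, where nearly all fragments lie on the other arm, they were 90.8% and 92.1%.

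Single calls were spread over distance more nearly as fragments were than recurrent ones, but fewer of them lay over 100 Mb. The median distance was 44.3 Mb for single and 24.7 Mb for recurrent contacts, and the difference over replicates was -19.6 ± 0.32 Mb (SD, n = 3). It was -19.6 Mb without chromosome 1 too, but -7.75 Mb with each promoter fragment counted once and -5.93 Mb with neighbouring contacts as 1. Of the single calls 36.6% spanned 20 to 50 Mb, where 36.3% of the fragments lay, and 35.3% spanned 50 to 100 Mb, where 32.1% lay. They were above the fragments at 10 to 20 Mb (19.6% against 15.5%) and below them over 100 Mb (8.49% against 16.1%). Of the recurrent contacts 71.0% spanned 20 to 50 Mb, and 16 spanned over 100 Mb. The longest member of all, a single call, spanned 243 Mb.

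**Figure D5:**
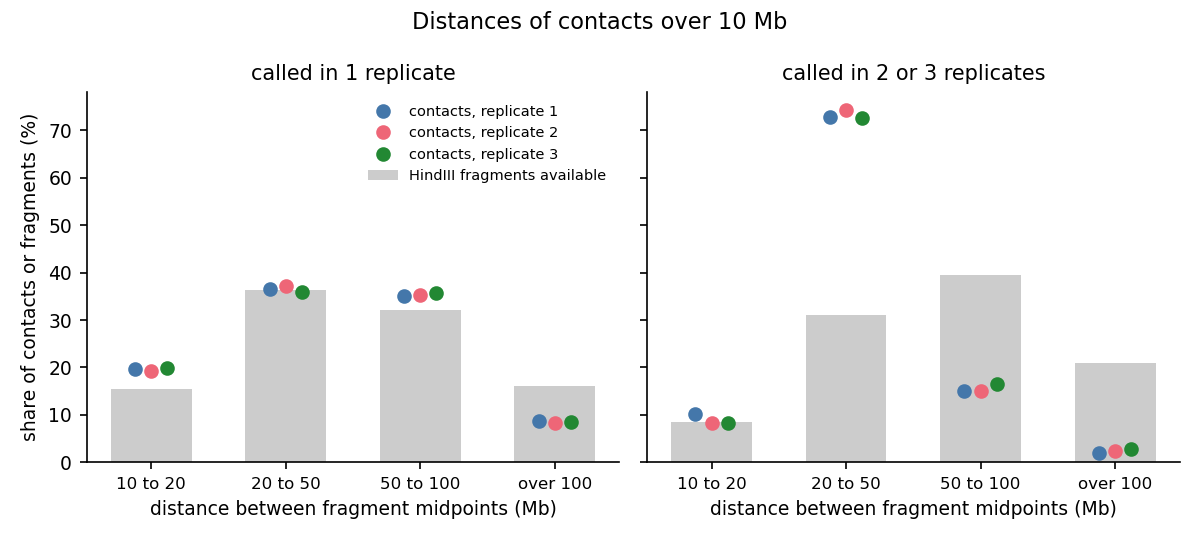
Shares of contacts over 10 Mb in 4 distance classes, for calls in 1 replicate (left) and in 2 or 3 (right); points are replicates and bars the share of HindIII fragments available to the same promoters. Single calls follow the bars to within 8 percentage points, while recurrent calls gather between 20 and 50 Mb at 72.5 to 74.3%.

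Near-identical sequence accompanied a part of the recurrent contacts. A stretch of 500 bp or more with at least 95% identity was sought for each fragment and its 2 kb flanks. In 0 of 14893 members did the fragments of a pair match each other over 500 bp or more inside both. Pairs with a fragment shorter than 500 bp could not be counted here. Over all 14893 members, if they were independent, which they are not, 0 would allow a share of up to 0.0201%. The pairs that could not be counted are in that number, so the limit for the others is higher. A copy of one fragment lay within 2 Mb of the other for 75 of the 659 recurrent contacts (11.4%, Wilson 9.18 to 14.0%) and for 70 of the 14234 single calls (0.492%). For recurrent contacts between 2 and 10 Mb on all chromosomes it was 2.18%, to be set beside the 11.4%. Outside chromosome 1 it was 45 of the 119 recurrent contacts over 10 Mb (37.8%). Of these 45, 23 were in 1 cluster of chromosome 17 with 5 PIRs, so they are not independent. The part of these copies in the calls was not tested.

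On chromosome 17, 12 promoter fragments of chr17:43296482-45007942 had 23 recurrent contacts, 19 in all 3 replicates, with 5 PIRs in or beside LRRC37A3 (chr17:62814099-62924284), a member of a gene family with several copies on this chromosome. All 23 had a copy near. Between MAPT and LRRC37A3 199 protein-coding genes lay in both builds. STH, which lies within the gene of the tau protein MAPT, scored 179.68, 212.98 and 27.18 with the PIR chr17:62916905-62919105. KANSL1, a subunit of a histone acetyltransferase complex, scored 153.66, 27.9 and 129.04 with it, and MAPT 27.87, 61.35 and 26.77. Farther out WNT3 and WNT9B scored 17.4, 21.76 and 8.43, below STH in each library. That PIR had 11 recurrent contacts, and no contact within 2 Mb, which 9.15% of all fragments had.

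The 5 longest contacts in all 3 replicates joined stretches toward the ends of chromosome 1. Promoters of chr1:16677336-17575857 met 2 PIRs of chr1:234907824-234921527, between 217 and 218 Mb away, in 8 recurrent contacts. SPATA21 scored 40.99, 19.94 and 41.31 in replicates 1, 2 and 3 at 218 Mb, and NECAP2, a protein of clathrin-coated vesicles, 19.11, 38.95 and 45.36. PADI2 and PADI3, which convert arginine to citrulline, scored 30.85, 26.68 and 11.73 and 22.73, 10.57 and 25.99. The lysosomal pump ATP13A2 scored 19.82, 6.84 and 20.2. All 5 were with the PIR whose copy is shown above, and 6 of the 8 contacts had a copy near. On chromosome 2, 8 recurrent contacts joined promoters of chr2:86554499-87036499 with 3 PIRs at ANAPC1 and ZC3H6, all with a copy near. The T cell co-receptor gene CD8A scored 27.37, 26.28 and 99.94 with chr2:113045049-113045979, and CHMP3, of the ESCRT machinery, 9.96, 47.75 and 41.71. On chromosome 16, 7 recurrent contacts joined chr16:34255114-35139004 with chr16:46478556-46639812 across the centromere, 3 of them with a copy near. A PIR of 200 bp at chr16:46478556-46478755 had the highest score there, 28.77, 121.03 and 76.16, with the promoter fragment chr16:34255114-34258726, which holds no start of a named protein-coding gene.

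Away from chromosome 1 and from such copies 74 recurrent contacts remained, 15 of them in all 3 replicates, and those named here beyond MIR583 and ZNF595 were chosen after their values were seen. A PIR of 344 bp in an intron of GHR, the growth hormone receptor gene, at chr5:42513551-42513894, met the promoter fragment of MIR583, 52.9 Mb away across the centromere, with scores of 26.13, 487.13 and 26.83. The score in replicate 2 was the highest of all members. Those of the other libraries lay between 25 and 28, where values repeat for a reason not known here. Whether the contact was weaker there cannot be told from these scores. In the merged calls the score was 26.83. The fragment of ELL2, an elongation factor of RNA polymerase II, met the same PIR with 26.83, 24.12 and 26.83. The PIR is shorter than 500 bp, so a match inside both fragments could not be counted. It was searched for copies with its 2 kb flanks, and neither contact had a copy near. Between GHR and ELL2 193 protein-coding genes lay in both builds.

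ZNF595, a zinc finger gene at the start of chromosome 4, met chr4:191027028-191033477 at the other end, 191 Mb away, with scores of 88.03, 109.12 and 141.36. It also met chr4:49280279-49291671, close to the centromere, with 39.73, 46.33 and 25.25. All 3 libraries were far above the threshold for both. The second PIR had near-identical copies beside it on chromosome 4, 1 of them 97.2% identical over 7049 bp. Only copies within 2 Mb of the other fragment were counted above, so this contact stayed among those without a copy near. CHL1, a neural cell adhesion gene, met chr3:75271459-75281003 with 31.85, 49.18 and 31.56 over 75.04 Mb. GABARAPL1, an autophagy gene, met chr12:112949448-112957249 with 41.1, 63.23 and 40.38 over 103 Mb. PRKG2, a cGMP-dependent kinase, met chr4:48277768-48283842 with 16.34, 27.09 and 15.93. On chromosome 19 recurrent scores were low, as 14 contacts between chr19:42186691-42937623 and chr19:54070607-56116187, in both directions, were all called in 2 replicates and none in 3. CEACAM7 and LILRB4 scored 7.05 and 6.81 in replicates 1 and 3, which was near the threshold in both.

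PIRs of recurrent contacts lay in genes more often than those of single calls, which again rested on chromosome 1. With each PIR counted once, a protein-coding gene overlapped 181 of 275 PIRs with a recurrent contact (65.8%, Wilson 60.03 to 71.17%) and 7304 of 12974 with single calls only (56.3%), against 45.1% of all 817812 HindIII fragments that were not promoter fragments. Without chromosome 1 it was 42 of 82 (51.2%, Wilson 40.6 to 61.7%) and 56.6%. Counted over contacts, where a PIR enters once for each of its contacts, the shares were 69.2% and 57.3%. Of the fragments available to the same promoters, 50.3% and 47.1% overlapped a protein-coding gene. Without chromosome 1 the shares over contacts were 45.4% and 57.1%, against 50.1% and 46.5% of the fragments available. With all chromosomes the mean difference over replicates was 12.3 ± 0.65 percentage points (SD, n = 3). Over contacts it turned to -14.1 percentage points without chromosome 1 and to -13.2 with each promoter fragment counted once. An exon was overlapped by 98 of the 275 PIRs (35.6%) and by 21.6% of those with single calls only, against 14.0% of all fragments. Without chromosome 1 the exon shares were 25.6% (Wilson 17.4 to 36.0%) and 21.6%. Mean GC content over contacts was 41.7% for recurrent and 41.1% for single calls, a difference of 0.56 ± 0.20 percentage points (SD, n = 3), and the fragments available averaged 40.5% and 40.1%. The GC difference was 2.85 points without chromosome 1, 2.27 with each promoter fragment once, 1.24 with neighbouring contacts as 1 and -0.96 at a score of at least 10. The median PIR length over contacts was 2498 bp and 1952 bp. A nearer contact, within 2 Mb, was called for 32% of the 275 recurrent PIRs, for 16.7% of the 12974 PIRs with single calls only and for 9.15% of all fragments.

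Of 17741 promoter fragments with a same-chromosome contact, 6649 (37.5%) had a member and 149 (0.840%) a recurrent one. By replicate the first share was 20.9%, 23.3% and 24.1%, a mean of 22.8 ± 1.62% (SD, n = 3). Of the 6649, 3853 had 1 member and 122 had 10 or more. No gene of the cardiac lists had a recurrent member. Of 31 promoter fragments of contraction genes 10 had a member (32.3%, Wilson 18.6 to 49.9%), and 0 of 31 a recurrent one, which allows up to 9.68%. Their 21 contacts scored 5.02 to 12.6, each in 1 library; the highest joined DES, the gene of the muscle intermediate filament desmin, with a PIR 193 Mb away in replicate 3. Of 24 fragments of cardiac transcription factors 7 had a member and 0 a recurrent one, and the highest score was 13.69, for HAND1 at 111 Mb in replicate 3. Natriuretic peptide gene NPPB had 3 members, all in replicate 3, of which 1 reached chr1:234907824-234916040 with a score of 10.86. Since 0.840% of all promoter fragments had a recurrent member, lists of this size would hold few at that background.

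Against 37.5% of all promoter fragments with a member and 0.840% with a recurrent one, olfactory receptor promoters had members most often among the lists. A member was found for 147 of 207 (71.0%, Wilson 64.5 to 76.8%), with 50.6%, 66.9% and 65.5% in replicates 1, 2 and 3, and 2 had a recurrent one (0.966%), near the share of all promoter fragments. Zinc finger promoters followed with 152 of 321 (47.4%, Wilson 42.0 to 52.8%), of which 7 had a recurrent member (2.18% of 321), ZNF697 and ZNF595 in all 3 replicates. These 7 are not independent. The ZNF697 fragment is shared with PHGDH in the largest cluster, and 3 neighbouring fragments of ZFP3 and ZNF232 met 1 PIR, each with a copy near. The other lists were near or below the 37.5%. Clustered protocadherins had 14 of 33 (42.4%), replication-dependent histones 14 of 46 (30.4%), keratins 25 of 92 (27.2%) and developmental transcription factor families 39 of 161 (24.2%). The PIRs of zinc finger promoters lay in another zinc finger gene in 79 of 483 contacts (16.4%, Wilson 13.3 to 19.9%), where 8.47% of the available fragments did, and 1 of the 79 was recurrent. The PIRs of olfactory receptor promoters lay in an olfactory receptor gene in 21 of 742 contacts (2.83%, Wilson 1.86 to 4.29%), where 0.275% of the available fragments did. Of these 21, 1 was recurrent. For other promoters the share was also above that available, at 0.276% of contacts against 0.144% of fragments. Zinc finger and olfactory receptor genes sit in clusters, so neighbouring fragments are not independent.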

How the data were processed

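PCHi-C was done in 3 biological replicates of hESC-CM. The authors mapped reads with HiCUP to GRCh37 and called interactions with CHiCAGO at default settings; versions are not given in the sources used here. The deposited CHiCAGO score per fragment pair is not a read count and is listed from 5 upward, per replicate and for the 3 replicates merged; read depth per replicate is not in the files used here. The files held 112473, 109731 and 110740 calls, and 152757 merged.

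Column 1 was taken as the promoter fragment, and a contact was matched between replicates by identical fragments. HindIII sites, GC content and centromere gaps (runs of at least 2.9 Mb of N inside a chromosome) came from GRCh37, genes from GENCODE 44 lifted to GRCh37, and gene order from RefSeq for GRCh38.p14. Copies were found with minimap2 2.31-r1302 (asm20). The reference did not mark repeats, so repeat content was not computed. Values are given per replicate with mean and SD; shares carry 95% Wilson intervals for counting error only. Differences were tested over replicates by exact sign-flip permutation, without a model or a low-value filter. Functions were tested on simulated data. Some genes and sequences are not reported here. The named contacts were the 10 with the highest mean score in all 3 replicates, the 5 highest that cross and the 5 longest, with the 5 leading fragments of each kind, the 8 largest clusters and gene list members in all 3. Members and lists were chosen with earlier results of these data known. Alternatives were a score of 10, 20 Mb, merged calls, 20 kb matching, each replicate left out, each promoter or cluster counted once, and the centromere surroundings left out. Analyses used Python 3.11.15, pandas 2.3.3, numpy 2.4.6 and scipy 1.17.1.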

Additional observations from a re-analysis of the deposited data

How the results depend on the processing

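Contacts over 10 Mb were few in number once a stricter setting was used, and the chromosome 1 clusters decided several comparisons. With a score of at least 10, 1412 contacts were left, 5.41% of same-chromosome contacts, 34.2% of them recurrent and 55.1% crossing, 1.12 times the share available, and 11.9% of promoter fragments had one. The merged calls held 547, 0.392% of same-chromosome contacts, 84.1% crossing, 1.62 times the share available, with 0.695% of promoter fragments. Counting neighbouring contacts as 1 left 7259, 31.4% crossing, and turned the crossing difference to -11.0 points. Matching within 20 kb made 8.90% recurrent. Over 20 Mb 34.8% crossed, 0.677 times the share available. Without fragments within 5 Mb of the centromere 24.5% crossed, 0.540 times. Without chromosome 1, chosen after seeing the data, the share of same-chromosome contacts was 7.78%, recurrence 0.984%, crossing 24.8%, the ratio 0.544 and the gene overlap difference -14.1 points. Counting each promoter fragment once turned the gene overlap difference to -13.2 points, and a score of at least 10 turned the GC difference to -0.96 points; the cause was not tested. Leaving out 1 replicate left 9724 to 10588 contacts, 6.92 to 7.62% of same-chromosome contacts, 4.65 to 5.01% recurrent, 30.2 to 30.4% crossing, a ratio of 0.638 to 0.646 and 30.8 to 32.5% of promoter fragments; the crossing difference ranged from 53.2 to 56.6 points and the gene overlap difference from 12.1 to 13.1. Without near copies, also added after seeing the data, no direction changed in the results recomputed. No paired analysis was possible because there was 1 group, so no samples could be paired across groups; recurrent and single calls were compared within each replicate.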

Other observations

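The calls made on the 3 replicates merged held 547 contacts over 10 Mb, all of them also called in at least 1 replicate. They took in 404 of the 410 contacts of all 3 replicates (98.5%), 119 of the 249 of 2 replicates (47.8%) and 24 of the 14234 single calls (0.169%). Chromosome 1 held 480 of the 547 (87.8%). The merged calls use the same reads, so they are not independent of the replicates.

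A few promoter fragments met many fragments with little recurrence. The fragment of the olfactory receptor gene OR4K2, near the start of the sequence of chromosome 14, had 94 members, of which 36, 28 and 35 were called in replicates 1, 2 and 3. Of these, 33 lay between 105.5 and 108 Mb, the stretch of the immunoglobulin heavy chain genes, and all 4 recurrent ones were there. The contact with chr14:106697352-106698956 was in all 3, with scores of 5.58, 17.66 and 11.24. The fragment of DEFB118, a defensin gene beside the centromere of chromosome 20, had 56 members, called 20, 19 and 19 times. Of these, 22 lay between 41 and 43 Mb, and both of its recurrent contacts were among them. No share of available fragments is given beside the windows of OR4K2 and DEFB118, so their crowding was not tested.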
